A study of Rattus norvegicus with 6 samples.

Results

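Collagen genes were followed in rat brain tissue around an infarct and in tissue of naive rats. A gene was a member if a probe set of the array carried its symbol alone and the symbol named a collagen chain (Col, a type number, a, a chain number). This gave 25 genes from 27 probe sets, out of 14497 genes with a probe set of this kind. For Col6a4, the only member with more than 1 probe set, the brightest of 3 was used. On 1 or more arrays each of the 25 lay at or above the 40th percentile of that array's probe sets, so all were among the 10947 genes tested and 0 were left out as too dim. Closest to that limit were Col17a1, which reached it on 3 of the 6 arrays, Col14a1 on 4 and Col6a4 on 5. RefSeq lists 44 rat collagen genes, and the other 19 (Col4a2, Col4a5, Col4a6, Col6a1, Col6a2, Col6a3, Col6a5, Col6a6, Col8a2, Col9a3, Col15a1, Col18a1, Col19a1, Col20a1, Col22a1, Col24a1, Col25a1, Col26a1 and Col28a1) were not analysed here.

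The animals were male Sprague-Dawley rats of 2 ages. Stroke rats had the middle cerebral artery lifted for a time with a hook, and the tissue around the infarct was taken 3 d or 14 d later. The young stroke rats were aged 3 to 4 months and the aged ones 19 to 20 months. Naive rats had no stroke, were 3 to 5 or 18 to 20 months old, and gave tissue that the labels call healthy brain, with no region named. Each of the 6 groups was 1 Affymetrix whole-transcript array hybridised with pooled RNA. Each pool after stroke held 19 young or 23 aged animals, and each naive pool 15. No sham-operated group is among them, so time after stroke and surgery cannot be told apart. In comparisons with naive tissue, stroke and a difference of region cannot be told apart either. Values are levels on a scale taken as log2 from its range, since the base is not given in the sources used here, with array medians between 7.09 and 7.15. The tissue carried the markers of brain: all 8 neuron, all 6 astrocyte and all 5 measured oligodendrocyte markers lay above the 40th percentile on every array.

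Collagens are proteins of the extracellular matrix in which chains wind into a stiff triple helix. Fibrillar collagens such as types I and III make the tensile fibrils of connective tissue and scar, while type IV forms the sheet-like network of basement membranes around vessels. Fibril-associated, short-chain network, beaded-filament and transmembrane collagens bind or space these structures. Healthy brain holds little fibrillar collagen outside the meninges and the walls of vessels, and a fibrotic scar after injury is rich in it.

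Changes were fitted with limma over all 6 arrays, with age and time after stroke as additive terms. A gene is called where its Benjamini-Hochberg adjusted p over all genes tested is below 0.05. Errors after ± are standard errors of log2 changes, with 2 arrays at each time point and 3 at each age. The error comes from how far the young and aged arrays depart from a common time effect, so an age difference of the response counts as error and no group has a replicate of its own. Both comparisons with naive tissue share the naive arrays.

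At 3 d, 5 of 25 collagen genes (20.0%) were higher than in naive tissue, against 14.4% of all genes tested. None was lower with limma, against 7.87% of all genes. The unadjusted p of Col14a1, the collagen with the lowest change (-0.35 ± 0.15), was 0.0467. The 5 were Col12a1, Col1a1, Col1a2, Col8a1 and Col3a1. At 14 d the higher genes again numbered 5 (20.0%, against 13.6% of all genes), with Col5a2 called in place of Col8a1. None was lower, against 11.4% of all genes, and the smallest unadjusted p of a collagen with a negative change was 0.326 (Col17a1). From 3 d to 14 d, Col1a1, Col1a2 and Col3a1 rose further (12.0% of the collagens, against 1.34% of all genes), and none fell, against 1.82%. The median fitted change of the 25 was -0.13 at 3 d and 0.02 at 14 d, beside -0.03 and -0.05 for all genes tested. The calls of all comparisons between times lay in 6 of the 25 genes.

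**Figure D1:**
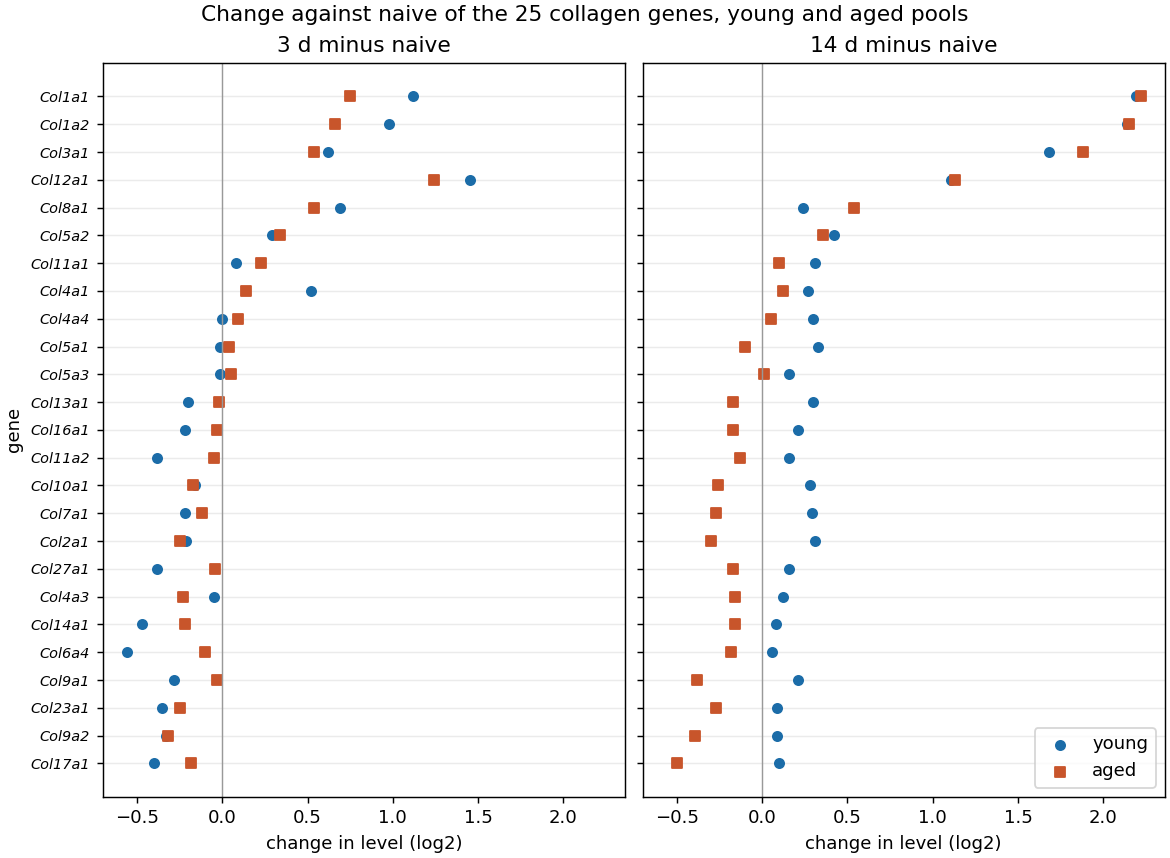
Change in log2 level against the naive pool of the same age for each of the 25 collagen genes, at 3 d (left) and 14 d (right); each point is 1 pair of pooled arrays, circles young and squares aged. At 14 d Col1a1, Col1a2, Col3a1 and Col12a1 lie above 1 in both ages, and the other genes between -0.50 and 0.54.

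Col1a1 and Col1a2 encode the chains of type I collagen, the main fibril of scar and bone. Col1a1 (probe set 10737532) stood at 8.18 in young and 7.98 in aged naive tissue, at 9.30 and 8.73 at 3 d, and at 10.37 and 10.20 at 14 d. Each stroke array lay above both naive arrays, and both 14 d arrays lay above both 3 d arrays. The fitted change was 0.93 ± 0.14 at 3 d (a 1.91-fold rise, adjusted p = 0.00363) and 2.20 ± 0.14 at 14 d (4.60-fold, adjusted p = 1.31e-04). The further rise from 3 d to 14 d was 1.27 ± 0.14 (adjusted p = 0.00334). On the naive arrays Col1a1 lay at the 68.5th percentile of all probe sets in young and the 65.4th in aged rats, and at 14 d at the 94.9th and 93.7th.

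Col1a2 (probe set 10853559) stood at 8.09 in young and 7.87 in aged naive tissue, at 9.07 and 8.52 at 3 d, and at 10.23 and 10.01 at 14 d. Its order over the arrays was that of Col1a1. It rose by 0.82 ± 0.13 at 3 d (1.76-fold, adjusted p = 0.00512) and by 2.14 ± 0.13 at 14 d (4.42-fold, adjusted p = 1.31e-04), with 1.33 ± 0.13 between the times (adjusted p = 0.00225). Once each gene was centred on its own mean, Col1a1 and Col1a2 differed by at most 0.07 on any array. The chains of this heteromeric collagen therefore followed the same course over the 6 pools.

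Col3a1 (probe set 10923052) encodes type III collagen, the fibril of soft tissue, vessel walls and early scar. It stood at 7.53 in young and 7.22 in aged naive tissue, at 8.15 and 7.76 at 3 d, and at 9.22 and 9.10 at 14 d. Again each stroke array exceeded both naive arrays. The change was 0.58 ± 0.13 at 3 d (1.49-fold, adjusted p = 0.0169) and 1.78 ± 0.13 at 14 d (3.44-fold, adjusted p = 1.51e-04), with 1.20 ± 0.13 between the times (adjusted p = 0.00260). Its centred values departed from those of Col1a1 by at most 0.31 and from those of Col1a2 by at most 0.24.

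For these 3 genes the larger part of the rise on the log2 scale came after 3 d, except for Col1a1 in young rats. Of the change at 14 d, 51.2% was present at 3 d for Col1a1 in young and 33.8% in aged rats. The shares were 45.7% and 30.6% for Col1a2, and 36.9% and 28.5% for Col3a1. At 14 d the young and aged pools had reached similar folds over their own naive pool, 4.55 and 4.65 for Col1a1, 4.41 and 4.43 for Col1a2, and 3.21 and 3.69 for Col3a1.

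**Figure D2:**
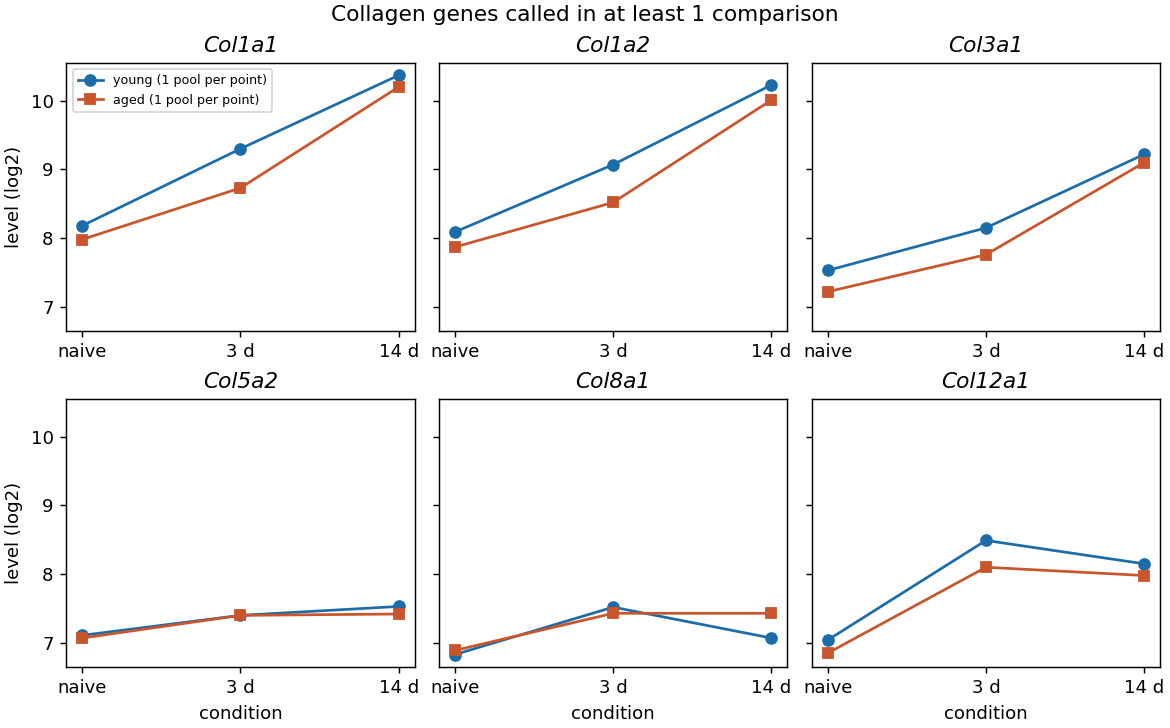
Log2 level of the 6 collagen genes called in at least 1 comparison, in naive tissue and at 3 d and 14 d after stroke; each point is 1 array of pooled RNA, circles young and squares aged. Col1a1, Col1a2 and Col3a1 climb at both steps, Col12a1 climbs by 3 d and stays high, and Col5a2 and Col8a1 move by less than 1.

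Col12a1 (probe set 10918869) encodes type XII collagen, a fibril-associated collagen that links type I fibrils to the surrounding matrix. It had the largest change of the family at 3 d. Its levels were 7.04 in young and 6.85 in aged naive tissue, 8.49 and 8.10 at 3 d, and 8.15 and 7.98 at 14 d. All 4 stroke arrays lay above both naive arrays, and the 3 d and 14 d arrays overlapped. The rise was 1.35 ± 0.12 at 3 d (2.54-fold, adjusted p = 3.84e-04) and 1.12 ± 0.12 at 14 d (2.18-fold, adjusted p = 9.36e-04). The change of -0.22 ± 0.12 between the times was not called (adjusted p = 0.590). Its centred values departed by as much as 0.86 from those of Col1a1, so it followed another course over time than the type I chains.

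Col8a1 (probe set 10750685) encodes a chain of type VIII collagen, a short-chain network collagen of vessel walls. It stood at 6.83 in young and 6.89 in aged naive tissue, at 7.52 and 7.43 at 3 d, and at 7.07 and 7.43 at 14 d. It rose by 0.62 ± 0.14 at 3 d (1.53-fold, adjusted p = 0.0213). At 14 d the change of 0.39 ± 0.14 was not called (adjusted p = 0.0865): the aged pool was as high as at 3 d, and the young pool had come part of the way back to its naive level. Without the young 14 d array the change at 14 d was 0.58 (adjusted p = 0.0159), and without the aged 14 d array it was 0.20 (adjusted p = 0.424).

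Col5a2 (probe set 10927728) encodes a chain of type V collagen, a minor fibrillar collagen that starts and limits the growth of type I fibrils. It stood at 7.11 in young and 7.07 in aged naive tissue, at 7.40 on both 3 d arrays, and at 7.53 and 7.42 at 14 d. Each stroke array exceeded both naive arrays, by little. The change of 0.31 ± 0.12 at 3 d was not called (adjusted p = 0.0978), and that of 0.39 ± 0.12 at 14 d was (1.31-fold, adjusted p = 0.0485). The call held with probe sets averaged and with no age term, and ended under each of the other alternatives that tested this gene, including the omission of any 1 array (adjusted p from 0.0682 to 0.262). Col5a1 and Col5a3, the other type V chains, were not called, with 0.11 ± 0.15 and 0.08 ± 0.12 at 14 d.

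The calls at 3 d were fewer when certain arrays were omitted, among the collagens and among all genes tested alike. Without the young 3 d or the young naive array 2 collagens were called (Col12a1 and Col1a1), and without the aged naive array 3 (also Col1a2). In these 3 fits Col3a1 had adjusted p from 0.0988 to 0.176 and Col8a1 from 0.107 to 0.214. With no age term Col3a1 was not called at 3 d either (adjusted p = 0.0540). At 14 d and from 3 d to 14 d, Col1a1, Col1a2 and Col3a1 were called under every alternative run, and so was Col12a1 against naive at both times.

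The set of RefSeq sequences used here (assembly GRCr8) held the sequence before the annotated start of 20 members, among them Col1a2, Col8a1 and Col5a2 of those called. Col1a1, Col2a1, Col3a1, Col12a1 and Col14a1 had no entry in this set, which does not mean that RefSeq lacks them. Stretches of Col1a2, Col8a1 and Col5a2 are printed because they were the called members with an entry. In the 250 bases before the start, 4 motifs were searched on both strands. They were the CCAAT box (the letters CCAAT), a form of the TATA box written TATAAA, the GC box GGGCGG bound by Sp1, and the AP-1 motif in its form TGANTCA. Matches are in capitals in the stretches, which read 5′ to 3′ on the gene's strand. That of Col1a2 covers bases 250 to 141 before the start (chr4:33518307-33518416, plus strand) and those of Col8a1 (chr11:56246672-56246781, plus strand) and Col5a2 (chr9:55090152-55090261, minus strand) the last 110.
Col1a2: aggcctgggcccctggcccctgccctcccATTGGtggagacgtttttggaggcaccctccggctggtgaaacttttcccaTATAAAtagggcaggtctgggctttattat
Col8a1: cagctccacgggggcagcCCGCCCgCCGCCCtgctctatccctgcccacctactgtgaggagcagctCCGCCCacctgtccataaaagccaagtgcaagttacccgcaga
Col5a2: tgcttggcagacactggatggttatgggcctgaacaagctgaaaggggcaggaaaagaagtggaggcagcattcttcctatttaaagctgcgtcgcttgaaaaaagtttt
CCAAT was found for 7 of the 20 collagens, against 34.0% of the 33469 rat windows. TATAAA was found for 4 (12.9% of all windows), GGGCGG for 11 (30.5%) and TGANTCA for 0 (6.34%). Col1a2 held the reverse of CCAAT and a TATAAA, Col8a1 held GGGCGG on the reverse strand at 3 places in the stretch, and Col5a2 held none of the 4 in its stretch. A collagen counted if any of its windows held the motif, while the shares are over single windows, so counts and shares are unlike measures. The printed stretch of Col1a2 lies farther from the start than the others and takes in its CCAAT and TATAAA matches. The matches describe letters and do not show binding, and no link between motif and time course was tested.

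The other 19 collagen genes were called in no comparison between times. By class they were 6 fibrillar genes (Col2a1, Col5a1, Col5a3, Col11a1, Col11a2 and Col27a1), 3 of basement membrane (Col4a1, Col4a3 and Col4a4), 4 fibril-associated (Col9a1, Col9a2, Col14a1 and Col16a1) and 3 transmembrane (Col13a1, Col17a1 and Col23a1). The last were Col6a4, a beaded-filament chain, Col7a1, the anchoring fibril of epithelia, and Col10a1, a network collagen of growth cartilage. Their levels ran from 6.17 to 7.94 over all arrays, around the array medians, and no gene moved by more than 0.62 between any 2 arrays. Their fitted changes lay between -0.35 and 0.33 at 3 d and between -0.20 and 0.21 at 14 d. The deposited values hold no detection call, so whether these levels exceed background was not tested.

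Among them Col4a1, a chain of the ubiquitous type IV network of vessels, had the highest change at 3 d. It stood at 7.19 in young and 7.22 in aged naive tissue, at 7.70 and 7.37 at 3 d, and at 7.45 and 7.35 at 14 d. The young 3 d array stood above the others. The change of 0.33 ± 0.14 at 3 d was not called (adjusted p = 0.121), nor was that of 0.19 ± 0.14 at 14 d (adjusted p = 0.333). Of 8 tested laminin, nidogen and proteoglycan genes of basement membrane, 5 rose at 3 d and 5 at 14 d, with none lower and a median change of 0.61 and 0.73. Nid2, which encodes nidogen-2, a linker of laminin and type IV collagen, rose by 1.35 ± 0.14 and 1.57 ± 0.14. Lamc1, the common laminin gamma chain, rose by 0.99 ± 0.13 and 0.84 ± 0.13, Lamb2 by 0.75 ± 0.12 and 1.05 ± 0.12, and Lama1, a laminin alpha chain, by 0.69 ± 0.15 and 1.42 ± 0.15. Lamc3 was the only member to rise from 3 d to 14 d (0.73 ± 0.13), a step that was not called without either naive array. The count at 3 d was 2 without the aged naive array and 3 without the young naive or young 3 d array, and that at 14 d was 3 without the young naive array.

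The young 14 d array stood out among the 19 genes. It held the highest level of 17 of them, against 9.45% of all genes tested. The exceptions were Col4a1, highest on the young 3 d array, and Col9a2, highest on the aged naive array. All 25 collagens were above the young naive level at 14 d in young rats (43.6% of all genes tested were), while 10 of 25 were above the aged naive level in aged rats (45.6%). For the 19 uncalled genes the median difference was 0.21 in young and -0.17 in aged rats, beside -0.05 for all genes in each age. This difference is small beside that of the type I and III genes, and it ran in opposite directions in the 2 ages. The 19 were split off by the fit itself, so these figures describe them and test nothing. With quantile normalization 15 and with median centring 16 of the 19 were highest on the young 14 d array. As deposited, that array also had the highest lower quartile (5.75) and 40th percentile (6.62) of all probe sets. Both were lowest on the young 3 d array (5.57 and 6.49), where 9 of the 19 were lowest. The shares of all genes are not matched to the 19 in level. Whether other genes of similar level share the pattern was not tested.

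Age was compared next. Across the 3 pairs of arrays limma called none of the 25 collagens and 0 of all genes tested (0%). At an unadjusted p under 0.05, 4 of 25 collagens (16.0%) were lower in aged rats, against 4.07% of all genes, and none was higher, against 3.71%. These 4 were Col1a1 (-0.32 ± 0.12, unadjusted p = 0.0275), Col1a2 (-0.33 ± 0.11, unadjusted p = 0.0188), Col3a1 (-0.27 ± 0.10, unadjusted p = 0.0326) and Col12a1 (-0.25 ± 0.10, unadjusted p = 0.0441). All 4 had adjusted p of 0.631 or 0.637, so none of these differences passed. Each was lower in the aged pool at all 3 time points. For Col1a1 aged minus young was -0.20 in naive tissue, -0.57 at 3 d and -0.17 at 14 d.

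Whether the age difference at one time point departed from that at the others was tested with an added interaction term, which leaves 1 residual degree of freedom. At 3 d the departure was -0.38 ± 0.26 for Col1a1 (unadjusted p = 0.164), -0.32 ± 0.26 for Col1a2 (unadjusted p = 0.235), -0.18 ± 0.26 for Col3a1 (unadjusted p = 0.498) and -0.22 ± 0.26 for Col12a1 (unadjusted p = 0.423). The lower 3 d levels in aged rats thus did not pass the test of a difference from the other time points. No collagen was called, against 0.00913% of all genes, and none had an unadjusted p under 0.05 at 3 d. The same held for the naive pair, with 0 collagens called, 0% of all genes called, and no collagen at an unadjusted p under 0.05.

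At 14 d no collagen was called either (0.393% of all genes were). At an unadjusted p under 0.05, 10 of 25 (40.0%) were lower in the aged than in the young pool relative to the other times, against 4.36% of all genes, and none was higher, against 9.01%. With moderated variances that follow the mean level and resist outliers (limma's trend and robust options) 6 were lower. With quantile normalization 11 were, and with median centring 7. The 10 of the main fit were Col2a1, Col5a1, Col7a1, Col9a1, Col9a2, Col10a1, Col13a1, Col16a1, Col17a1 and Col27a1, all uncalled between times. As deposited, the 40th percentile of all probe sets at 14 d was 6.62 on the young and 6.53 on the aged array. The shares of all genes are not matched to these genes in level. Whether other genes of similar level moved likewise was not tested. Among the farthest was Col9a1, at -0.71 ± 0.21 (unadjusted p = 0.00633, adjusted p = 0.168). Its levels were 6.98 in young and 7.01 in aged naive tissue, 6.70 and 6.98 at 3 d, and 7.19 and 6.63 at 14 d, so that the young array was the highest and the aged array the lowest at 14 d. Col17a1 had -0.71 ± 0.21 too (unadjusted p = 0.00596, adjusted p = 0.164). Of the 25 collagens, 24 were lower in the aged pool at 14 d, and Col8a1 was higher. Of all genes tested, 52.1% were higher in that pool. At 3 d most went the other way: 18 of the 25 were higher in the aged pool, against 37.5% of all genes.

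**Figure D3:**
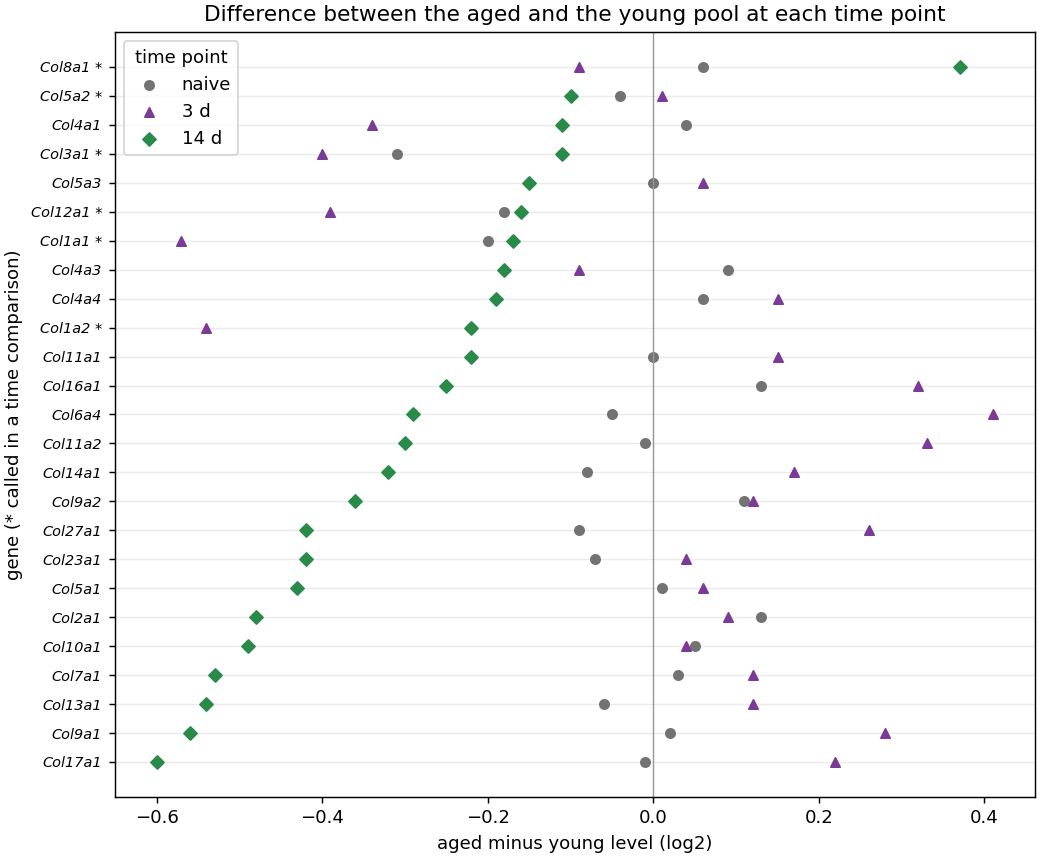
Aged minus young log2 level of each collagen gene in naive tissue (circles), at 3 d (triangles) and at 14 d (diamonds); each point is 1 pair of arrays, and a star marks genes called in a comparison between times. The 14 d points lie below 0 for 24 of 25 genes, whereas 52.1% of all genes tested lie above 0. At 3 d 18 of the 25 lie above 0. The largest differences of Col1a1 and Col1a2, -0.57 and -0.54, are those at 3 d.

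Many, but not all, of the genes that make and fold collagen rose after stroke. Of 18 genes tested of the synthesis and folding list, 10 were higher at 3 d and 13 at 14 d, and none was lower. P3h2, counted as higher at both times, passed the filter on low values only through its stroke arrays. The 8 not called at 3 d and the 5 not called at 14 d both included P4ha1, P4ha2 and P4ha3. The list's median change was 0.68 and 0.70, beside -0.03 and -0.05 for all genes tested. Serpinh1, the collagen chaperone HSP47, had the largest change at both times. It stood at 8.61 in young and 8.52 in aged naive tissue, at 10.29 and 9.84 at 3 d, and at 10.21 and 9.86 at 14 d. That is a rise of 1.50 ± 0.13 and 1.47 ± 0.13 (adjusted p = 3.31e-04 and 3.76e-04), and the 3 d and 14 d arrays overlapped. Fkbp10, a foldase of the collagen-making endoplasmic reticulum, rose by 1.43 ± 0.21 and 1.32 ± 0.21. Crtap, part of the prolyl 3-hydroxylation complex, rose by 1.24 ± 0.23 and 1.30 ± 0.23. Colgalt1, which adds galactose to hydroxylysine, rose by 1.18 ± 0.13 and 1.15 ± 0.13, and Plod1, a lysyl hydroxylase, by 1.12 ± 0.12 and 1.39 ± 0.12. From 3 d to 14 d, 0 of the 18 were called in either direction. Without the young naive, aged naive or young 3 d array the count at 3 d was 6, 5 and 6, and without the young or aged naive array that at 14 d was 7 and 6.

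Of 10 tested genes of procollagen processing and cross-linking, 6 rose at 3 d and 7 at 14 d, and the median change was 0.63 and 0.74. Loxl2 and Loxl1 are lysyl oxidase-like enzymes that cross-link fibres. They rose by 1.33 ± 0.17 and 1.18 ± 0.19 at 3 d and by 1.49 ± 0.17 and 1.93 ± 0.19 at 14 d. Loxl2 passed the filter on low values only through its stroke arrays. Tgm2, a transglutaminase, rose by 1.32 ± 0.14 at 3 d and then fell by 0.69 on the log2 scale (adjusted p = 0.0462). Bmp1, the protease that removes the C-terminal propeptide, rose by 1.04 ± 0.17 and 0.93 ± 0.17. Its enhancer Pcolce rose by 0.59 ± 0.15 at 3 d and 1.31 ± 0.15 at 14 d, and was the only member higher at 14 d than at 3 d (0.72 ± 0.15, adjusted p = 0.0445). Both of these calls between the times ended without either naive array, the aged 3 d or the aged 14 d array. Both also ended with no filter on low values, that of Tgm2 further without the young 3 d array and with no age term, and that of Pcolce with median centring. Adamts3, a procollagen protease, was the only gene lower, by -0.43 ± 0.12 and -0.49 ± 0.12, and was named after its value was seen. It was not called at 3 d without any 1 of the naive or 3 d arrays or with no filter on low values, nor at 14 d without either naive array, nor at either time with no age term. The count at 3 d was 2 without the aged naive array and 4 without the young naive or young 3 d array. At 14 d it was 3 without the aged naive array.

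Receptors of collagen rose in 4 of 8 cases at each time, with a median change of 0.47 and 0.52. Ddr2, the receptor kinase for fibrillar collagen, stood at 7.50 in young and 7.27 in aged naive tissue, at 8.80 and 8.39 at 3 d, and at 9.32 and 9.56 at 14 d. It rose by 1.21 ± 0.17, then by a further 0.85 ± 0.17 to 2.05 ± 0.17 at 14 d (adjusted p = 2.44e-04), and both steps were called. Mrc2, the endocytic collagen receptor, rose by 0.92 ± 0.13 and 1.70 ± 0.13, also with a called step between the times (0.78 ± 0.13). Both steps between the times ended without either naive array or the aged 3 d array, and 1 receptor gene was called without the aged 14 d array, with no filter on low values and with no age term. The integrin chains Itgb1 and Itga1 rose by 1.10 ± 0.13 and 0.57 ± 0.16 at 3 d and by 0.81 ± 0.13 and 0.68 ± 0.16 at 14 d. The count at 14 d was 2 without the young naive array.

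Genes of collagen breakdown rose too, 7 of 7 tested at 3 d and 6 of 7 at 14 d. The median change was 0.98 and 1.51. The list had 9 measured genes, and Mmp13 and Fap were too dim to be tested. Mmp8 passed the filter on low values only through its stroke arrays, so the full count at 3 d was partly set by the filter. Mmp8, a collagenase of neutrophils and macrophages, rose by 2.53 ± 0.36 and 2.52 ± 0.36, from naive levels of 5.43 and 5.37 that lay below the lower quartile of their arrays, so the size is uncertain. Mmp2 (1.12 ± 0.12 and 1.49 ± 0.12) and Mmp14 (0.99 ± 0.22 and 1.51 ± 0.22) encode a gelatinase and its membrane-bound activator. Ctsk, a collagen-degrading cathepsin, rose by 0.98 ± 0.18 at 3 d and 1.90 ± 0.18 at 14 d, with a called step between the times (0.92 ± 0.18), as had Mrc2, which is on this list too. Without either naive array or the aged 3 d array neither step was called, without the aged 14 d array 1 gene of the list rose between the times, and without the young 14 d array 4 did. Mmp9, another gelatinase, was higher at 3 d (0.94 ± 0.21) and fell by 1.33 from there to 14 d (adjusted p = 0.0177), a call that ended with no age term. Without the aged 14 d array 2 genes fell between the times. The count at 3 d was 3 without the aged naive array and 4 without the young naive array.

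**Figure D4:**
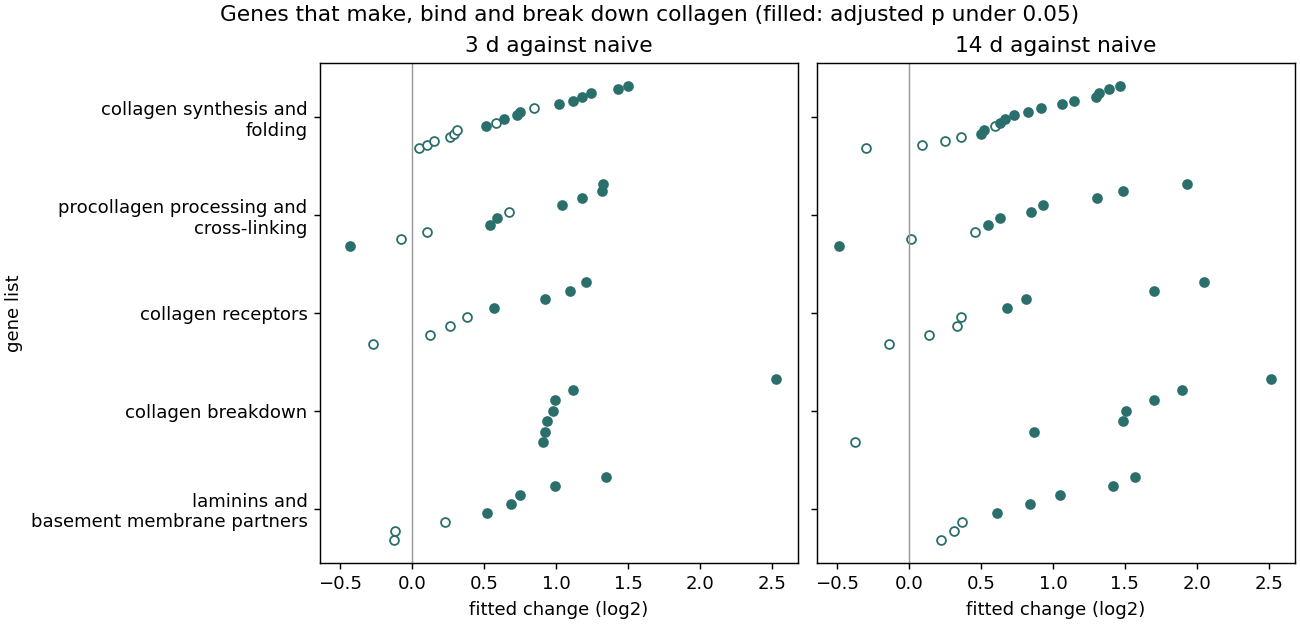
Fitted log2 change at 3 d (left) and 14 d (right) against naive tissue of each tested gene in 5 lists around collagen; each circle is 1 gene, filled where its adjusted p is below 0.05. Most synthesis and folding genes lie right of 0 at both times, and every tested breakdown gene does so at 3 d.

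Marker lists of several cell types changed after stroke, each on its own course. Of 10 fibroblast and meningeal markers 4 rose at 3 d and 9 at 14 d, and 7 rose from 3 d to 14 d. None of the markers is a collagen. The log2 of the list's summed level was 11.78 in both naive pools, 12.49 and 12.29 in young and aged rats at 3 d, and 13.55 and 13.73 at 14 d. Lum, which encodes the fibril-binding proteoglycan lumican and is a defining marker, was below the lower quartile on both naive arrays (5.58 and 5.33) and rose by 2.10 ± 0.18 and 3.49 ± 0.18, sizes that are uncertain from so low a start. Dcn, which encodes decorin, rose by 1.37 ± 0.16 and 2.07 ± 0.16. Igfbp2 rose by 1.48 ± 0.14 and 2.20 ± 0.14, and Aldh1a2 by 1.16 ± 0.17 and 2.19 ± 0.17. The other 6 were not called at 3 d. Among them, Igf2 (-0.29 ± 0.14) and Slc22a6 (-0.03 ± 0.14) had not risen by 3 d. From there to 14 d they rose by 2.83 ± 0.14 and 1.62 ± 0.14. The mean level of Col1a1, Col1a2 and Col3a1 rose by 0.91 and 0.65 at 3 d and by 2.01 and 2.08 at 14 d in young and aged rats. The list moved by 0.71 and 0.51, and by 1.77 and 1.95. Its part in the collagen changes was not tested. In pooled tissue, more cells of a type and more RNA per cell cannot be told apart.

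Of the pericyte and smooth muscle list, 6 of 10 genes were higher at 3 d and 3 at 14 d (1 without the aged naive array). Its summed level was above naive by 0.92 and 0.74 at 3 d and by 0.47 and 0.41 at 14 d. The endothelial list had 6 of 9 higher at 3 d and 4 at 14 d (1 without either naive array, 2 without the aged 14 d array), with summed changes of 0.67 and 0.55, then 0.35 and 0.31. All 9 macrophage and microglia markers were higher at both times, with summed changes between 2.51 and 2.93. Cd14 passed the filter on low values only through its stroke arrays, so these full counts were partly set by the filter. Astrocyte markers were higher in 2 of 6 cases at 3 d and 4 at 14 d, led by the filament gene Gfap (1.86 ± 0.21 and 1.62 ± 0.21), with summed changes of 0.41 and 0.31, then 0.48 and 0.29. These counts were 1 at 3 d without any 1 of the naive or 3 d arrays or with median centring, and at 14 d 1 without either naive array and 2 without the young 14 d array. Of 5 oligodendrocyte markers, Mog, a myelin gene, was lower at both times (-0.50 ± 0.12 and -0.42 ± 0.12), with summed changes from -0.22 to -0.11 for the list. Under the alternatives 0 to 2 of the 5 were lower at 3 d and 0 or 1 at 14 d, with 0 at both times without any 1 of the naive or 3 d arrays, and at 14 d also without the aged 14 d array. Of 7 choroid plexus markers, 5 were lower at 3 d (3 without the young naive array and 1 when that of aged naive rats was omitted) and 0 at 14 d, with summed changes of -0.76 and -1.16, then 0.26 and 0.05. From 3 d to 14 d 5 of them rose (2 without the aged 3 d array, 3 at the fewest under the other settings). Neuron markers were lower in 3 of 8 cases at 3 d and 5 at 14 d, and in 5 at both times with quantile normalization or median centring. Without the young naive array 0 were lower at 3 d, and without the aged naive or either 3 d array 1 was. Without either naive array 2 were lower at 14 d. The parts of these lists in the collagen changes were not tested.

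**Figure D5:**
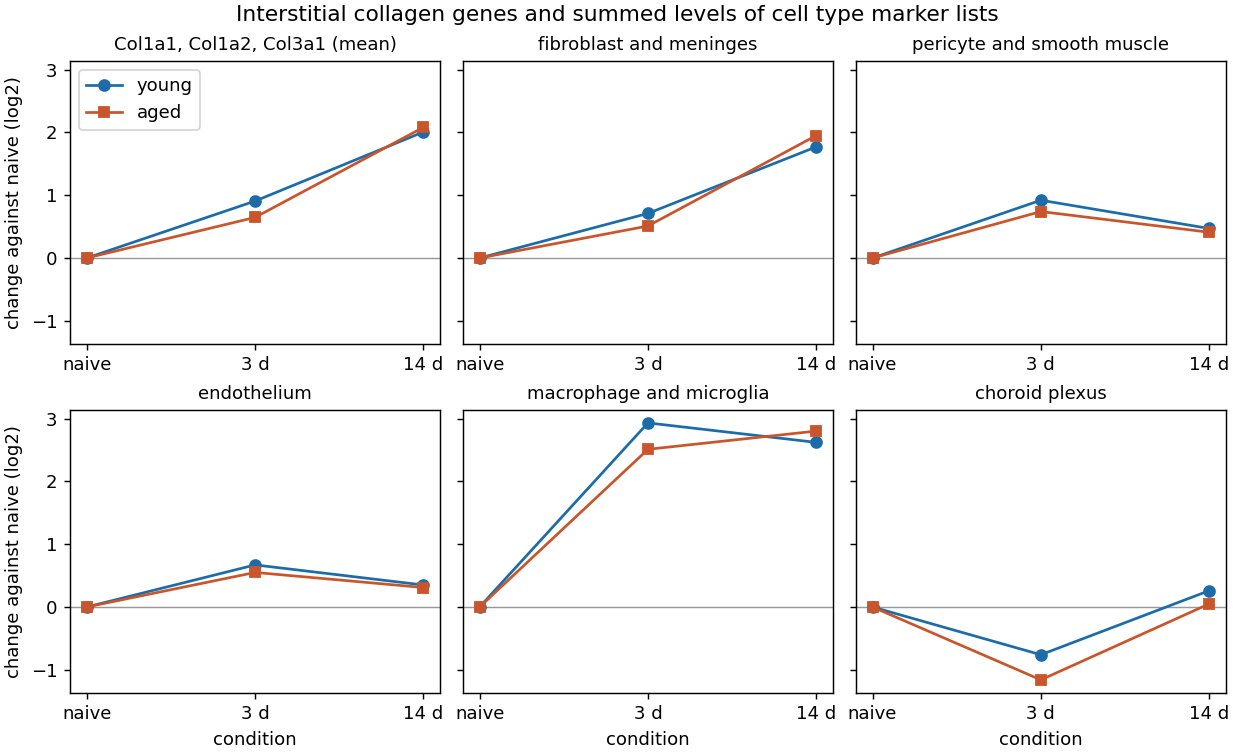
Change against the naive pool of the same age, on the log2 scale, of the mean level of Col1a1, Col1a2 and Col3a1 and of the summed level of 5 marker lists; circles are young and squares aged, with 1 array of pooled RNA per point. The collagens and the fibroblast and meningeal list climb at both steps, to about 2 at 14 d, while the pericyte and endothelial lists are highest at 3 d.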

How the data were processed

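RNA was measured on 6 arrays, 1 pool each. The values were taken as deposited, on a log2 scale whose base is inferred from the range. The submitters' processing notes name affy and R 2.14.0. How background, probe summaries and scaling were handled, and on which build, is not given in the sources used here. Arrays have no read depth, and their number limits the precision. Of 28826 probe sets, 15209 had 1 symbol, 306 several, and 13311 were unnamed here. The brightest probe set stood for a gene. Genes at or above the 40th percentile of an array on at least 1 array were fitted across all genes (limma 3.58.1, R 4.3.3, 2 residual degrees of freedom, 5.56 prior degrees of freedom) with Benjamini-Hochberg adjustment. Some list genes, such as Mmp8, Loxl2, Lum, P3h2 and Cd14, passed the filter only on stroke arrays. P-values rest on how far the young and aged pools depart from a common time effect, since no group has a replicate pool.

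The members and lists were chosen with earlier results of these data known. Named by rule were members called in any comparison or changed by at least 1. For each list around collagen and each comparison between times, up to 4 called genes with the largest changes were named. Of the cell type marker lists only some genes that met this rule were named, and that choice was free. Col4a1, Col5a1, Col5a3, Col9a1, Col14a1, Col17a1, Adamts3, Plod2 and Lox were given values outside this rule, after these were seen, as were the collagens moving oppositely in the ages. Mmp13, Fap, P4ha1, P4ha2, P4ha3, P3h2 and Cd14 were named outside it without values. The scripts were tested on simulated data. Alternatives were other scalings, filters, probe sets, variances and models, and each array left out. Pearson correlations between arrays ranged from 0.962 to 0.995. With 1 array a group, any batch and the group cannot be told apart.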

Additional observations from a re-analysis of the deposited data

Results flagged for a closer look

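Collagen genes that moved in opposite directions in the 2 ages by at least 0.2 each were taken for a closer look. The opposite directions themselves were not tested. A related test, whether the age difference at 14 d departs from that at the other times, gave these 5 genes unadjusted p from 0.00596 to 0.0226 and adjusted p from 0.164 to 0.279 (limma), so none passed. At 14 d against naive, the aged change minus the young change was -0.54 for Col10a1 (0.28 in young, -0.26 in aged rats), -0.61 for Col2a1 (0.31 and -0.30), -0.56 for Col7a1 (0.29 and -0.27) and -0.58 for Col9a1 (0.21 and -0.38). These are 4 of 25 collagens, beside 3.59% of all genes tested. From 3 d to 14 d it was -0.82 for Col17a1 (0.50 and -0.32) and -0.84 for Col9a1 (0.49 and -0.35), 2 of 25, beside 6.32% of all genes. At 3 d against naive there was no such gene among the collagens, beside 1.47% of all genes. These shares of all genes are not matched to the collagens in level.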

How the results depend on the processing

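The count of called collagens at 3 d was 2 to 6 when 1 array was left out (2 without the young 3 d or the young naive array, 3 without the aged naive array), and 4 or 5 under the other settings. At 14 d it was 4 to 6 under all settings, and from 3 d to 14 d always 3. No collagen was called between ages, or for the age difference of 1 time point, under any alternative run. The omissions that lowered the count of collagens at 3 d also lowered the count of all genes called higher. The 60th percentile filter left 5 collagens to test. The interaction could not be tested with an array left out, which leaves no residual degrees of freedom. Without either 14 d array Col14a1 was called lower at 3 d, and without the young 14 d array Col17a1 was called lower at 14 d. No called change of a collagen turned its direction under any alternative run. No paired analysis was possible because the labels give no replicate numbers. The age term already compares times within each age, and without it 4, 5 and 3 collagens were called at 3 d, at 14 d and between them. The share of higher calls among all genes at 14 d moved with the scaling (1491 higher and 1243 lower as deposited, 1336 and 1686 with median centring). Counts of the other lists were recomputed under the same settings after the data were seen.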

Other observations

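A pair of cross-linking genes, singled out after their values were seen, stood highest on the young 3 d array. Plod2, the lysyl hydroxylase of collagen telopeptides, stood there at 7.74, against 6.51 in aged rats at 3 d, 6.81 and 6.96 at 14 d and 6.17 and 6.39 in naive tissue of young and aged rats. Lox, the founding lysyl oxidase, stood at 7.98, against 7.10 in aged rats at 3 d, 7.22 and 7.43 at 14 d and 6.97 and 6.77 in naive tissue. Neither was called at 3 d (adjusted p = 0.0989 and 0.0783, limma), nor in the comparison of ages over all 3 time points (-0.29 ± 0.26 and -0.29 ± 0.19, adjusted p = 0.779 and 0.703).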
